A study of Mus musculus with 27 samples.

Results

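Ngfr, Bdnf, Ntf3, Ntrk2, Ntrk3, Gdnf, Gfra1 and Gfra2 are ligand and receptor genes of the neurotrophin and GDNF families. They are 8 of the 54446 genes counted in each library. The genes were selected on measured values of these data: the CPM of Ngfr and Gfra2 was known to differ strongly between stromal libraries. The members' levels across those libraries are therefore given as a description, with no test.

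Neurotrophins are secreted growth factors, made as precursors and cut by proteases, that keep neurons alive and guide their outgrowth. The mature factors signal through Trk receptor tyrosine kinases: TrkB (Ntrk2) binds BDNF, and TrkC (Ntrk3) binds neurotrophin-3, the product of Ntf3. The neurotrophins also bind the p75 receptor (Ngfr), which pairs with sortilin-type receptors to bind the precursors. Ligands of the GDNF family bind a lipid-anchored coreceptor of the GFRα type, which presents them to the kinase Ret: Gfra1 prefers GDNF and Gfra2 prefers neurturin. Outside nerves, p75 is a known surface marker of follicular dendritic cells and of other stromal cells of lymphoid tissue, and Schwann cells of peripheral nerves carry it too. Gene-level counts do not separate the full-length Trk receptors from their truncated forms.

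The series holds 27 bulk RNA-seq libraries from 12-week-old NOD mice, a strain that develops autoimmune diabetes. The TG+ libraries carry Ins2-CCL21, in which an insulin promoter drives the chemokine CCL21, and the TG- libraries are from NOD/ShiLtJ mice without it. By their labels, 8 libraries are leukocytes of islet infiltrates sorted as CD45 (4 TG-, 4 TG+), 4 are islet cells with high gp38 (2 TG-, 2 TG+), 8 are islet cells with low gp38 (4 TG-, 4 TG+) and 7 are fibroblastic reticular cells, or FRCs, of skin-draining lymph nodes (4 TG-, 3 TG+). The scaffold of the T cell zone is built by FRCs, and gp38 is the surface protein podoplanin. The labels name no animal for a library, so the p-values cover only the spread from library to library, which may be technical. In bulk samples, fewer cells of a type and less RNA per cell cannot be told apart.

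The labels and the marker genes did not match, so the levels were read by 4 classes of library set by measured markers. Ptprc, which encodes CD45, was above 100 CPM (each count scaled by its library's total of reads in genes) in 8 libraries. Of these, 1 is labelled CD45 and 5 are labelled lymph node FRC. Ccl21a, a chemokine of lymph node stroma, was above 1000 CPM in 7 others, of which 4 are labelled CD45, 3 gp38-low and 0 lymph node FRC. Msln, a mesothelial gene, was above 100 CPM in 4 more, 1 from each labelled population. The remaining 8 libraries passed none of these thresholds and are labelled gp38-low (3), CD45 (2), gp38-high (2) and lymph node FRC (1). The class sizes of 8, 7, 4 and 8 equal the numbers of libraries labelled CD45, lymph node FRC, gp38-high and gp38-low. Whether each file carries the title of its own sample could not be tested, so every comparison by label, of population and of genotype alike, holds only for the labels as given. The classes are called the Ptprc, Ccl21a, Msln and remaining libraries below, and the last 3 classes together are the 19 stromal-class libraries.

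No library lay near a threshold. The lowest Ptprc level above the line was 169 CPM and the highest below it 5.79 CPM. For Ccl21a these values were 2162 and 5.28 CPM, and for Msln 573 and 2.52 CPM. Ccl21a has near-identical copies in the mouse genome, so its own level is uncertain. Across genes, pairs of libraries of 1 class correlated at 0.910 to 0.993 (83 pairs), and pairs from different classes at 0.445 to 0.918 (268 pairs). Reads in genes numbered 8517844 to 25194443 per library, so a count of 0 allows up to 0.119 to 0.352 CPM (3 counts, counting error only). The non-coding RNA Gm26917 took 5.31% to 36.0% of the reads in genes and so lowered the CPM of other genes unevenly. Without it in the total, the median Ngfr level of the Ccl21a libraries is 237 CPM in place of 197 CPM.

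Each receptor had its own distribution over the stromal-class libraries. Ngfr and Gfra2 were highest in the Ccl21a libraries, Ntrk2 in the remaining libraries, and Gfra1 and Bdnf in the Msln libraries, while Ntf3 stood at the same level in all 3. Ntrk3 was lowest in the Ccl21a libraries, where Ngfr and Gfra2 were highest. In the Ptprc libraries only Gfra2 and Ntrk3 reached a median above 5 CPM.

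**Figure D1:**
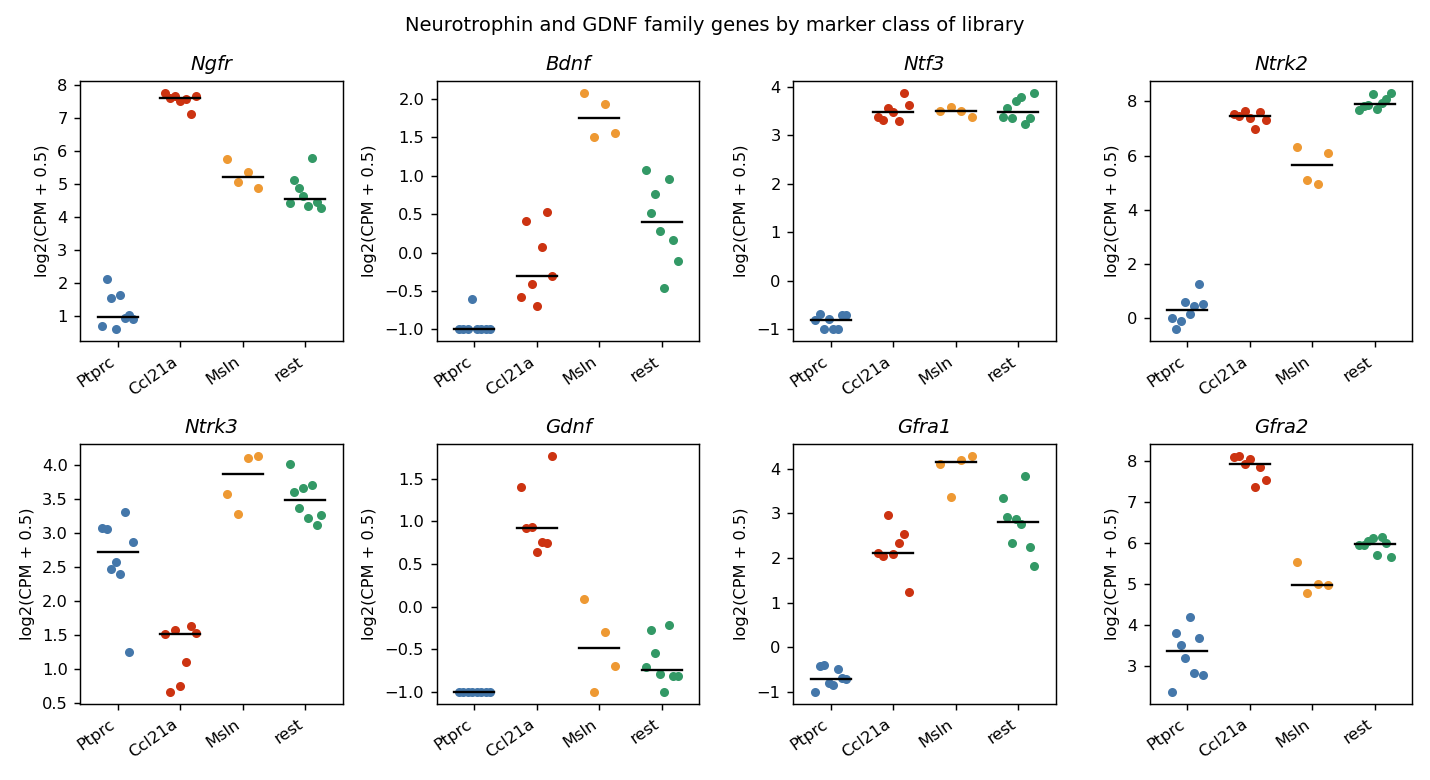
Level of each of the 8 genes on the log2(CPM + 0.5) scale, 1 point per library, in the 8 Ptprc, 7 Ccl21a, 4 Msln and 8 remaining libraries (x axis), with a black line at the class median. Ngfr, Gfra2 and Gdnf stand highest in the Ccl21a libraries with no overlap, while Ntf3 overlaps in all 3 stromal classes.

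Among the ligands, Ntf3 (ENSMUSG00000049107.13, chromosome 6, 126101412 to 126166910, minus strand, mm10) was the most abundant. Its level ran from 9.32 to 14.2 CPM in the Ccl21a libraries (median 10.8), from 9.87 to 11.5 CPM in the Msln libraries (median 10.8) and from 8.92 to 14.2 CPM in the remaining libraries (median 10.7). The 3 ranges overlap almost fully. Over the 8 Ptprc libraries Ntf3 ran from 0 to 0.124 CPM, with 6 reads in all. Of the 8 genes, Ntf3 was thus the only 1 whose medians in the 3 stromal classes lay within 1.02 times of each other.

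Bdnf (ENSMUSG00000048482.14, chromosome 2, 109674700 to 109727007, plus strand) encodes brain-derived neurotrophic factor. Its level was 2.34 to 3.73 CPM in the 4 Msln libraries (median 2.88), above every other library. The remaining libraries ranged from 0.223 to 1.61 CPM (median 0.819), and the Ccl21a libraries from 0.118 to 0.946 CPM (median 0.312). These last 2 ranges overlap. The Ptprc libraries held 2 reads of Bdnf in all. An exon overlap of 896 bases with the opposite-strand gene Gm45346 bears on its unstranded counts, whereas the strand-specific counts used here held 2.82% antisense reads at most in any class.

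Gdnf (ENSMUSG00000022144.4, chromosome 15, 7810846 to 7837575, plus strand) had the fewest reads of the 8 genes. It lay between 1.06 and 2.91 CPM in the Ccl21a libraries (median 1.39), from 0 to 0.563 CPM in the Msln libraries and from 0 to 0.360 CPM in the remaining libraries. The Ccl21a libraries did not overlap with any other, at 13 to 38 reads each. No read was found in any Ptprc library. In the Ccl21a libraries 103 reads fell on the opposite strand of Gdnf against 161 on its own, an antisense share of 39.0%, whereas this share was 2.82% or less for Ngfr, Bdnf, Ntf3, Ntrk2, Ntrk3, Gfra1 and Gfra2 in every class. No annotated exon of another gene overlaps Gdnf.

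The p75 receptor gene Ngfr (ENSMUSG00000000120.6, chromosome 11, 95568818 to 95587735, minus strand) separated the Ccl21a libraries from all others. Its levels in those 7 libraries were 217, 197 and 204 CPM in the libraries labelled CD45 TG- replicates 1 to 3, 181 CPM in CD45 TG+ replicate 3, 191 CPM in gp38-low TG- replicate 3, and 139 and 203 CPM in gp38-low TG+ replicates 1 and 3. The next highest library of the series, gp38-low TG+ replicate 2, had 55.2 CPM. Thus all 7 lie above the other 20 libraries, whatever population their label names.

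The 4 Msln libraries had Ngfr at 54.2 CPM (labelled CD45 TG+ replicate 1), 33.2 CPM (gp38-high TG- replicate 1), 40.8 CPM (gp38-low TG- replicate 4) and 28.9 CPM (lymph node FRC TG- replicate 2). The 8 remaining libraries ran from 19.1 to 55.2 CPM (median 23.0), and these 2 classes overlap. The median of the Ccl21a libraries was 8.56 times that of the remaining libraries and 5.32 times that of the Msln libraries. In the Ptprc libraries Ngfr was 1.01 to 3.83 CPM (median 1.47), from 12 to 62 reads each.

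Beside Ngfr, the gene of the high-affinity BDNF receptor Ntrk2 (ENSMUSG00000055254.15, chromosome 13, 58806569 to 59133970, plus strand) had the opposite order in 2 classes. It was highest in the 8 remaining libraries, at 206 to 319 CPM (median 239), followed without overlap by the Ccl21a libraries at 125 to 199 CPM (median 177). The 4 Msln libraries lay lower again, at 79.7 CPM in CD45 TG+ replicate 1, 67.3 CPM in lymph node FRC TG- replicate 2, 33.5 CPM in gp38-high TG- replicate 1 and 30.3 CPM in gp38-low TG- replicate 4. In Ptprc libraries Ntrk2 was 0.247 to 1.88 CPM (median 0.732). The median of the remaining libraries was 1.35 times that of the Ccl21a libraries and 4.74 times that of the Msln libraries.

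The promoter windows of Ngfr and Ntrk2 are shown because these receptors of 1 ligand family ran in different orders over the classes. They cover the 213 bases from 250 to 38 bases before the RefSeq start, 5′ to 3′ on the gene's strand (RefSeq, GRCm38.p6), at chr11:95587736-95587948 on the minus strand for Ngfr and chr13:58806319-58806531 on the plus strand for Ntrk2. Capitals mark the GC box GGGCGG, searched on both strands.
Ngfr: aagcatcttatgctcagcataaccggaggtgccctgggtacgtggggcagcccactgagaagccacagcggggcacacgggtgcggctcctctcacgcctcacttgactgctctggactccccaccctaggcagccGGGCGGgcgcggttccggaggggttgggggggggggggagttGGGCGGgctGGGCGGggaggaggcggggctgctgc
Ntrk2: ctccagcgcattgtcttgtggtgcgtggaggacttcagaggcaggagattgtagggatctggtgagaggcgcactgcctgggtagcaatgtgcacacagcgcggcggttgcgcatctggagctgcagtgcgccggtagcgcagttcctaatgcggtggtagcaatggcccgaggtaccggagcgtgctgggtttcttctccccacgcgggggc
The Ngfr window holds 3 GC boxes and the Ntrk2 window 0, and neither holds the letters CCAAT or TATAAA on either strand. The windows stop 38 bases before the start, short of the usual place of a TATA box. Whether either promoter has a TATA box therefore cannot be read from them. Of 32851 promoter windows of this length, 27.4% hold a GC box, 30.2% CCAAT and 9.67% TATAAA. The G and C share is 70.9% in the Ngfr window and 62.9% in the Ntrk2 window, against a median of 51.6% over all windows. A match is a description of the letters, not a site. Promoter entries were found for 6 of the 8 genes, all except Ntrk3 and Gfra2.

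Ntrk3 (ENSMUSG00000059146.12, chromosome 7, 78175959 to 78738012, minus strand), the neurotrophin-3 receptor gene, had its lowest stromal levels in the Ccl21a libraries. There it ran from 1.08 to 2.60 CPM (median 2.36), against 9.28 to 17.2 CPM in the Msln libraries (median 14.1) and 8.16 to 15.7 CPM in the remaining libraries (median 10.8). The Ccl21a libraries lie below both other stromal classes without overlap, and those 2 overlap with each other. Ntrk3 was also read in the Ptprc libraries, at 1.88 to 9.46 CPM (median 6.11).

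The GDNF coreceptor gene Gfra1 (ENSMUSG00000025089.15, chromosome 19, 58235604 to 58455909, minus strand) was 16.8 CPM in CD45 TG+ replicate 1, 9.76 CPM in gp38-high TG- replicate 1, 17.9 CPM in gp38-low TG- replicate 4 and 19.2 CPM in lymph node FRC TG- replicate 2, the 4 Msln libraries. The remaining libraries ranged from 3.04 to 13.9 CPM (median 6.52) and the Ccl21a libraries from 1.87 to 7.34 CPM (median 3.82). Msln and Ccl21a libraries do not overlap, whereas the remaining libraries overlap with both. The Ptprc libraries had Gfra1 at 0 to 0.261 CPM, or 4 reads at most.

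Gfra2 (ENSMUSG00000022103.10, chromosome 14, 70890120 to 70979838, plus strand), the coreceptor that prefers neurturin, split the 4 classes into 4 bands that did not overlap. In the Ccl21a libraries it was 273, 280 and 241 CPM in CD45 TG- replicates 1 to 3, 266 CPM in CD45 TG+ replicate 3, 164 CPM in gp38-low TG- replicate 3, and 233 and 184 CPM in gp38-low TG+ replicates 1 and 3. The remaining libraries followed at 49.9 to 70.6 CPM (median 62.8). The Msln libraries came next, at 45.9 CPM in CD45 TG+ replicate 1, 31.5 CPM in gp38-low TG- replicate 4, 31.1 CPM in lymph node FRC TG- replicate 2 and 27.2 CPM in gp38-high TG- replicate 1. The Ptprc libraries were lowest, at 4.68 to 18.0 CPM (median 9.84).

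By medians, Gfra2 was 3.84 times higher in the Ccl21a than in the remaining libraries and 7.70 times higher than in the Msln libraries. Within the remaining libraries it varied little, the highest library having 1.41 times the lowest. Ngfr spread more there, at 2.89 times.

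**Figure D2:**
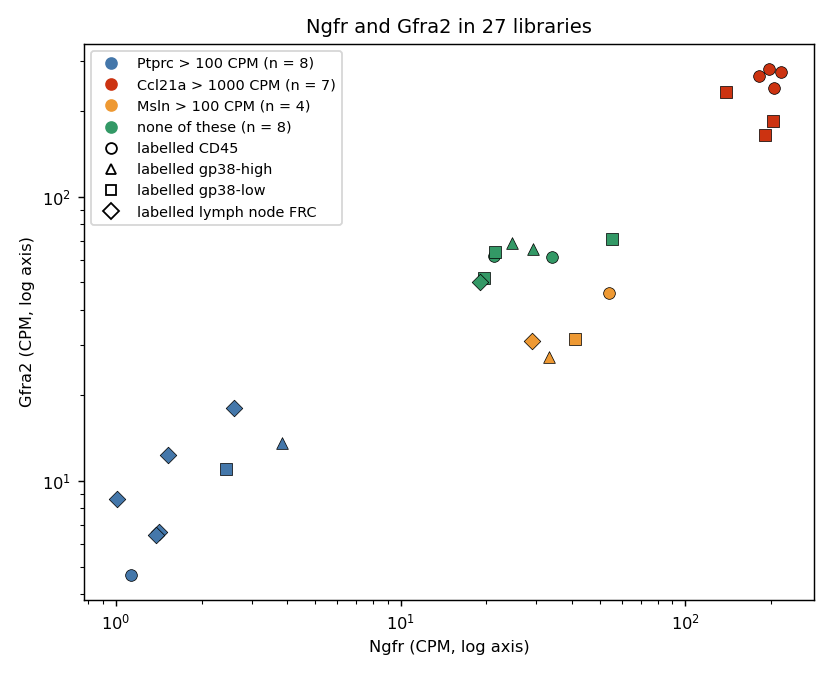
Ngfr against Gfra2 in the 27 libraries, in CPM on log axes, coloured by marker class and shaped by labelled population. The 7 Ccl21a libraries lie together at 139 CPM of Ngfr or more and 164 CPM of Gfra2 or more, with circles (labelled CD45) and squares (labelled gp38-low) among them.

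The counts of genes whose classes did not overlap give these levels a background over 16797 genes with at least 1 CPM in at least 4 libraries. Because the classes were set from measured values, the counts support nothing. Between the Ccl21a and the remaining libraries, 3 of the 8 genes (Ngfr, Gdnf, Gfra2) were higher without overlap, against 9.73% of all genes, and 2 (Ntrk2, Ntrk3) were lower, against 15.2%. Between the Msln and the remaining libraries, Bdnf was higher (19.8% of all genes were) and Ntrk2 and Gfra2 were lower (7.83%). From Ccl21a to Msln libraries, 4 genes stood higher in the former (Ngfr, Ntrk2, Gdnf, Gfra2; 10.1% of all genes) and 3 in the latter (Bdnf, Ntrk3, Gfra1; 30.2%). In the Ptprc libraries 5 of the 8 (Ngfr, Ntf3, Ntrk2, Gfra1, Gfra2) were below all other libraries, against 18.9% of all genes, and 0 were above, against 12.5%.

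Levels of different genes can be compared only per length, here as CPM per kb of exon. On this scale the median of Gfra2 in the Ccl21a libraries was 68.1 and that of Ngfr 57.1, followed by Ntrk2 at 9.16, Ntf3 at 6.28, Gfra1 at 0.698, Gdnf at 0.379, Ntrk3 at 0.0783 and Bdnf at 0.0502. In the remaining libraries Gfra2 led at 17.7, followed by Ntrk2 at 12.4, Ngfr at 6.67 and Ntf3 at 6.22. The Msln libraries had Ngfr at 10.7, Gfra2 at 8.84, Ntf3 at 6.32 and Gfra1 at 3.17. The ligand genes Bdnf and Gdnf stayed below 0.5 CPM per kb at the median in every class.

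Ratios within a library do not depend on the CPM total. The per-kb ratio of Gfra2 to Gfra1 was 50.8 to 152 in the Ccl21a libraries (median 109), 7.87 to 25.4 in the remaining libraries (median 14.5) and 2.51 to 4.32 in the Msln libraries (median 3.47). These 3 ranges do not overlap. In the 7 Ptprc libraries with any Gfra1 read the ratio was 47.2 to 515 (median 86.7), which covers the range of the Ccl21a libraries. It rests there on 4 Gfra1 reads at most per library. For Ngfr over Ntrk2 the ratio was 4.04 to 8.57 in the Ccl21a libraries, 2.40 to 7.56 in the Msln libraries and 0.335 to 1.27 in the remaining libraries. Here the first 2 ranges overlap and the last lies below both.

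Over the 19 stromal-class libraries, Gdnf and Ngfr had the highest correlation of log2(CPM + 0.5) among pairs of the 8 genes, at 0.956. Gfra2 correlated with Ngfr at 0.872 and with Gdnf at 0.858. Ntrk3 ran opposite to Gfra2, at -0.918, and to Ngfr, at -0.886, while Ntrk2 and Ngfr stood at -0.02. These points share their class, and the 3 class levels set most of each value, so they are a description and carry no p.

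The genes most like each member were taken from 9454 protein-coding genes with a mean of at least 10 CPM, by the same correlation over the same 19 libraries. For Ngfr they were Syt13 (0.98), Slc2a1, Tifa, Csmd1 and Adora2a (0.974). Syt13, a synaptotagmin family gene, had 88.2 to 154 CPM in the Ccl21a libraries and 1.43 to 7.27 CPM in the remaining libraries. Gfra2 ran closest to Chst2 (0.985), Pcdhb9, Nrp1, Dram1 and Vegfc (0.979). Ntrk2 ran closest to Ms4a4d (0.974), Pdgfra, Ecm2, Clmp and Naalad2 (0.963), and Pdgfra is a receptor gene typical of fibroblasts. Near to Ntrk3 were Col4a5 (0.966), Hid1, Mn1 and Col4a3 (0.962). Gfra1 had a looser set, with Pcbp3 (0.885), Dock5, Laptm4b, Eml2 and Wfs1 (0.863). The even level of Ntf3 left its closest gene, Polr2c, at 0.674.

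The other genes of both pathways were described from a list by role. Of 5 further ligands, 4 reached 1 CPM in some library. Nrtn, which encodes neurturin, the preferred ligand of Gfra2, was 1.90 to 7.50 CPM in the remaining libraries, 2.46 to 6.84 CPM in the Msln libraries and 0 to 2.01 CPM in the Ccl21a libraries. The libraries with the most Gfra2 thus had a low level of Nrtn. They also held the least ductal RNA of the stromal classes. A list of ductal epithelial genes (7 genes) summed to 15.9 to 60.0 CPM in the Ccl21a libraries. It summed to 321 to 3530 CPM in the remaining and 1231 to 4005 CPM in the Msln libraries. The part of ductal RNA in the Nrtn level was not tested. Artn, the ligand of Gfra3, ran from 2.79 to 5.65 CPM in the remaining and from 0.0914 to 0.731 CPM in the Ccl21a libraries. Ntf5, which encodes neurotrophin-4, a TrkB ligand, was highest in the Msln libraries, at 2.16 to 4.11 CPM.

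Of 12 further receptors and coreceptors, 9 reached 10 CPM. Sorcs2, a sortilin-type partner of p75, was 224 to 402 CPM in the Ccl21a libraries and 22.7 to 39.6 CPM in the remaining ones. Rtn4r, the Nogo receptor gene whose protein can pair with p75, was 59.9 to 82.1 CPM in the Ccl21a libraries and at most 1.76 CPM in the Msln and 1.01 CPM in the remaining libraries. Sort1, the sortilin gene, overlapped, at 23.3 to 30.9 CPM in the Ccl21a and 27.7 to 143 CPM in the remaining libraries. The part of ductal RNA in the Sort1 level was not tested. The kinase gene Ret, named after its values were seen, was 23.7 to 28.3 CPM in the remaining, 8.32 to 15.4 CPM in the Ccl21a and 4.21 to 9.43 CPM in the Msln libraries. Ret was therefore not highest in the class with the most Gfra2.

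**Figure D3:**
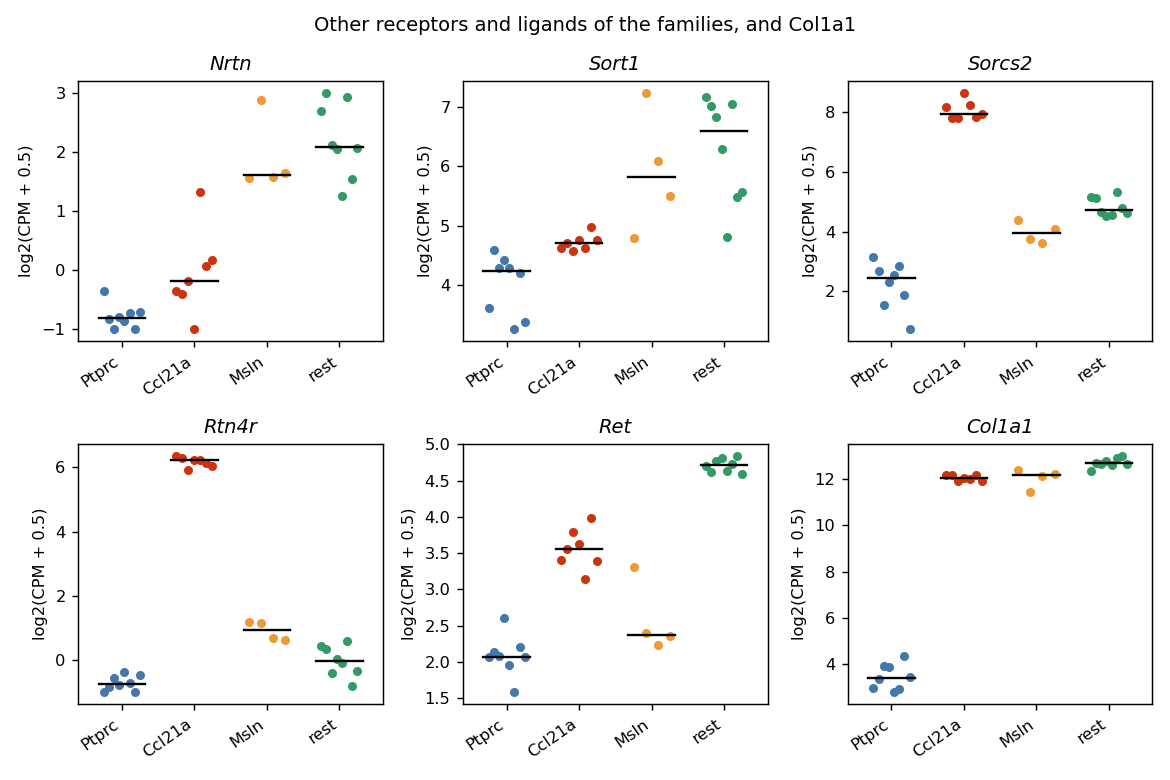
Levels of 5 partner genes and of the collagen gene Col1a1 on the log2(CPM + 0.5) scale, 1 point per library by marker class, with a line at the class median. Sorcs2 and Rtn4r are highest in the 7 Ccl21a libraries, Ret in the 8 remaining libraries, Nrtn is lowest by median in the Ptprc libraries, and Col1a1 is high in all 3 stromal classes.

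Between the Ccl21a and the remaining libraries, 4 of the 9 further receptor genes in the background set were higher without overlap, against 9.73% of all genes. Sorcs2, Lingo1 and Rtn4r are among these 4. Only Ret was lower, against 15.2% of all genes. Of 10 proteases that cut precursors or p75, 2 (Mmp3, Mmp9) were higher, against 9.73% of all genes, and 3 (Pcsk5, Pcsk6, Plat) lower, against 15.2%. Pcsk6, a proprotein convertase, spanned 564 to 1483 CPM in the remaining libraries and 7.59 to 61.2 CPM in the Ccl21a libraries. Plat, the gene of tissue plasminogen activator, which makes plasmin that can cut proBDNF, was 223 to 543 CPM and 26.5 to 85.9 CPM in the same 2 classes, and Furin overlapped at 139 to 173 CPM and 120 to 155 CPM. Of 18 adaptors, 1 (Maged1) was higher and 6 (Bex1, Shc1, Shc2, Shc3, Sh2b1, Irak1) lower, beside the same 9.73% and 15.2%. Maged1, a p75-binding adaptor, was 492 to 573 CPM in the Ccl21a libraries and 356 to 465 CPM in the remaining libraries.

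Markers of other cell types that carry these receptors were summed for each class. The list of Schwann cell and glial genes (9 genes) summed to 4.25 to 12.8 CPM in the Ccl21a libraries, where Ngfr was highest, and to 29.1 to 185 CPM in the remaining libraries, of which Erbb3 made up 21.5 to 153 CPM. Its defining gene Sox10 was 0.118 to 4.57 CPM in the Ccl21a libraries, 0.206 to 3.23 CPM in the remaining and 0 to 0.175 CPM in the Msln libraries, and Foxd3 was at 0 in all Ccl21a libraries. By its median, the sum of glial genes was lowest in the class with the most Ngfr. This order leaned on Erbb3, which made up most of the sum in every Ptprc library, the class next lowest by median. Sox10 did not follow it, since the highest Sox10 level of the series, 4.57 CPM, was in a Ccl21a library. Within the remaining libraries the highest Ngfr, 55.2 CPM in gp38-low TG+ replicate 2, came with a Sox10 level of 3.17 CPM, while CD45 TG+ replicate 2 had 3.23 CPM of Sox10 and 21.2 CPM of Ngfr. Their part in the Ngfr level was not tested.

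The neuron list (10 genes) summed to 24.8 to 79.1 CPM in the Ccl21a libraries and 7.96 to 26.1 CPM in the remaining libraries. In the former, Stmn2 made up 23.2 to 77.5 CPM, and Elavl4, Chat and Th were at 0 in all 7. The pericyte and smooth muscle list (10 genes) summed to 3659 to 5118 CPM in the Ccl21a, 311 to 498 CPM in the Msln and 247 to 476 CPM in the remaining libraries. The follicular dendritic cell list (8 genes) summed to 5936 to 9586 CPM, 1691 to 3896 CPM and 606 to 3793 CPM in the same order, and the lymphoid stroma list (10 genes) to 3560 to 7790 CPM, 177 to 310 CPM and 74.2 to 119 CPM. Of the 8 follicular dendritic cell genes, 8, 6 and 5 reached 1 CPM in the same order, and Sox9 is also in the ductal list. The pericyte and follicular dendritic cell lists, like Ngfr and Gfra2, were highest in the Ccl21a libraries without overlap. The lymphoid stroma list was highest there by the class rule, because it holds Ccl21a itself, at 2162 to 5685 CPM in these libraries. From the Msln to the remaining libraries the medians of the pericyte, follicular dendritic cell and lymphoid stroma lists were lower (426 and 384 CPM, 2471 and 2224 CPM, 273 and 90.5 CPM). The median of Gfra2 was higher. The part of these cell types in the levels of Ngfr and Gfra2 was not tested.

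By label, both genes spread widely within a group. The libraries labelled CD45 TG- had Ngfr at 155 CPM ± 103 (SD, n = 4) and those labelled CD45 TG+ at 72.7 CPM ± 73.7 (SD, n = 4). The 3 TG- libraries at 197 to 217 CPM are Ccl21a libraries, and the fourth, at 1.13 CPM, is a Ptprc library. Labelled lymph node FRC TG- libraries had Ngfr at 19.1, 28.9, 1.01 and 2.59 CPM, and the TG+ libraries at 1.41, 1.53 and 1.38 CPM. The 2 high values are the only libraries of that population that are not Ptprc libraries.

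**Figure D4:**
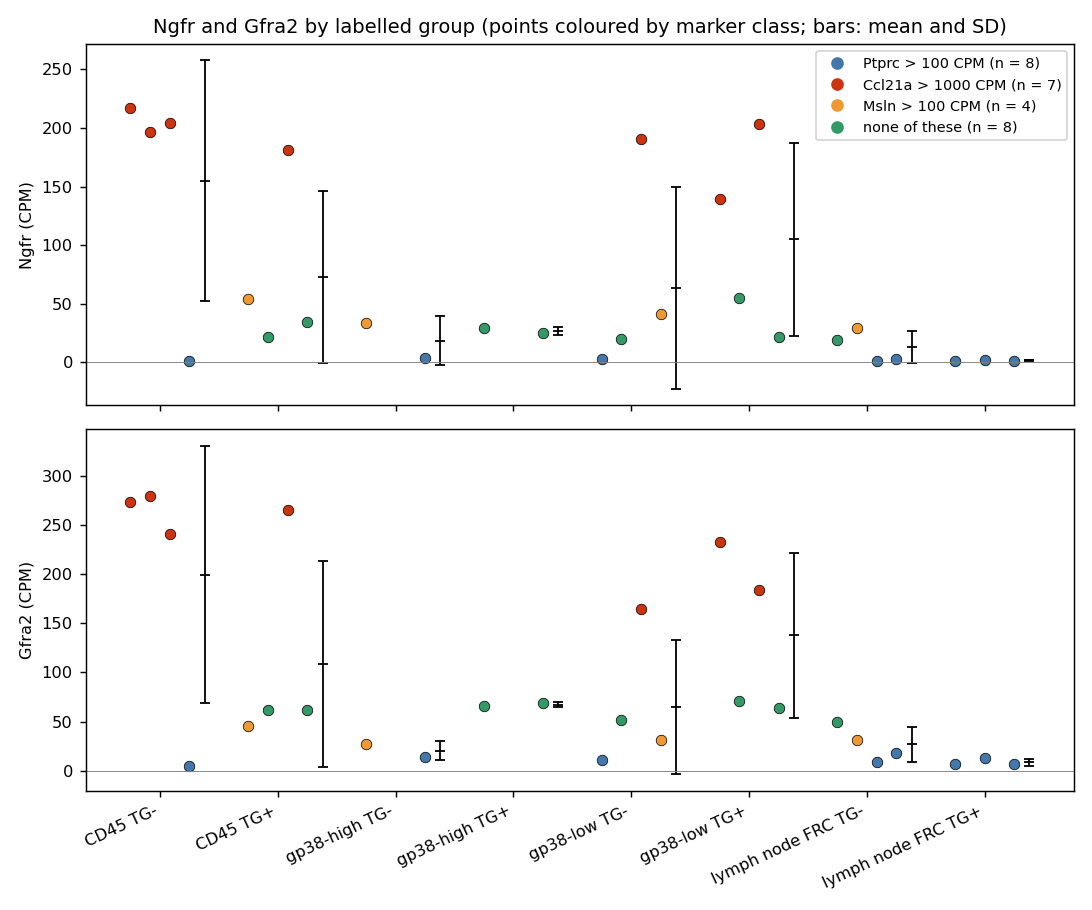
Ngfr (top) and Gfra2 (bottom) in CPM for each library by labelled group, coloured by marker class, with the mean and SD of each group beside its points. Within 1 labelled group the points spread from near 1 CPM to 217 CPM for Ngfr, and their height follows the colour.

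The transgene question, whether TG+ and TG- cells of 1 labelled population differ, was tested with edgeR's quasi-likelihood test and Benjamini-Hochberg adjustment over all genes in each fit. The gp38-high difference came from a fit that also held the gp38-low libraries, so its errors and p-values share their spread. In every one of the 4 populations 0 genes were called (0%), so 0 of the 8 genes were. Unadjusted p was under 0.05 for 1402 of 14871 genes for CD45, for 273 of 14095 with gp38-low, for 920 of 17937 with gp38-high, and for 981 of 13819 with lymph node FRC libraries. DESeq2 called 427, 1, 40 and 549 genes (2.87%, 0.00709%, 0.223% and 3.97%), among them 1 of the 8, Ntrk2 in the lymph node FRC libraries. Leaving out CD45 TG+ replicate 3, a Ccl21a library, gave 519 calls (3.33%) in CD45 and still 0 of the 8 genes.

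In the libraries labelled CD45, the log2 difference of TG+ from TG- was -1.19 ± 1.21 (SE) for Ngfr and -0.97 ± 1.04 for Gfra2, with edgeR adjusted p of 0.738 and 0.750. For gp38-low the differences were 0.59 ± 1.22 and 0.92 ± 0.89 (edgeR adjusted p of 0.999 for both). The gp38-high differences were 0.75 ± 1.63 and 1.79 ± 1.14 (edgeR adjusted p = 0.904 and 0.663). None of these 6 differences passed the test.

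In lymph node FRC libraries 4 of the 8 genes passed the low-count filter, and 3 had an unadjusted p under 0.05 beside 981 of all 13819 genes. Ngfr differed by -2.88 ± 1.13 (SE), Gfra2 by -1.53 ± 0.62 and Ntrk2 by -6.21 ± 2.38 on the log2 scale, each with an edgeR adjusted p of 0.696. The Ntrk2 libraries behind this value had 319, 67.3, 1.01 and 0.595 CPM under TG- and 0.870, 1.88 and 0.921 CPM under TG+. All 3 TG+ libraries and 2 of the 4 TG- libraries are Ptprc libraries, so the marker class moved with genotype here.

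With the marker class as a covariate over all 27 libraries (13 TG+, 14 TG-), edgeR called 0 of 18393 genes (0%) and DESeq2 called 0, while 1779 genes had an unadjusted p under 0.05 in edgeR. The log2 difference of TG+ from TG- was 0.02 ± 0.20 (SE) for Ngfr, -0.03 ± 0.16 for Gfra2, 0.21 ± 0.19 for Ntrk2 and -0.14 ± 0.16 for Ntf3. For Ntrk3 it was 0.02 ± 0.21, for Gfra1 0.00 ± 0.27, for Bdnf 0.49 ± 0.41 and for Gdnf 0.71 ± 0.49. The edgeR adjusted p ran from 0.565 for Gdnf to 0.999 for Gfra1. Errors were 0.49 at most in this fit, against 0.62 to 2.58 in the transgene comparisons by labelled population. The median difference was 0.02 over the 8 genes and -8.0e-05 over all genes tested.

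Between populations, the libraries labelled gp38-low were set against lymph node FRC because the study placed islet FRC-like cells beside lymph node FRCs. Across 19 libraries labelled stromal, 0 of 18396 genes were called by edgeR (0%), with a smallest adjusted p of 0.0943 and 6639 genes at an unadjusted p under 0.05. Of the 8 genes, 7 had an unadjusted p under 0.05, all higher in gp38-low. The log2 difference was 4.26 ± 0.98 (SE) for Ngfr, 2.61 ± 0.58 for Gfra2 and 5.02 ± 1.48 for Gdnf, each at an edgeR adjusted p of 0.0943. Ntrk2 differed by 3.66 ± 1.34 (edgeR adjusted p = 0.0961), Ntf3 by 3.72 ± 1.37, Bdnf by 3.50 ± 1.54 and Gfra1 by 2.75 ± 1.12, while Ntrk3 stood at -0.24 ± 0.48. The median was 3.58 over the 8 genes and 0.15 over all genes.

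This result turned on single libraries and on the tool. Without gp38-low TG- replicate 1, a Ptprc library, edgeR called 5403 genes (29.3%) and 5 of the 8 (Gdnf, Gfra2, Ngfr, Ntf3, Ntrk2). Without lymph node FRC TG- replicate 1, which is in the class of remaining libraries, it called 1369 genes (7.49%) and 3 of the 8 (Gfra2, Ngfr, Ntrk2). DESeq2 called 4777 genes (26%) and 6 of the 8, all but Bdnf and Ntrk3. Of the 7 labelled lymph node FRC libraries 5 are Ptprc libraries, against 1 of 8 labelled gp38-low, so population and marker class cannot be told apart in this comparison.

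**Figure D5:**
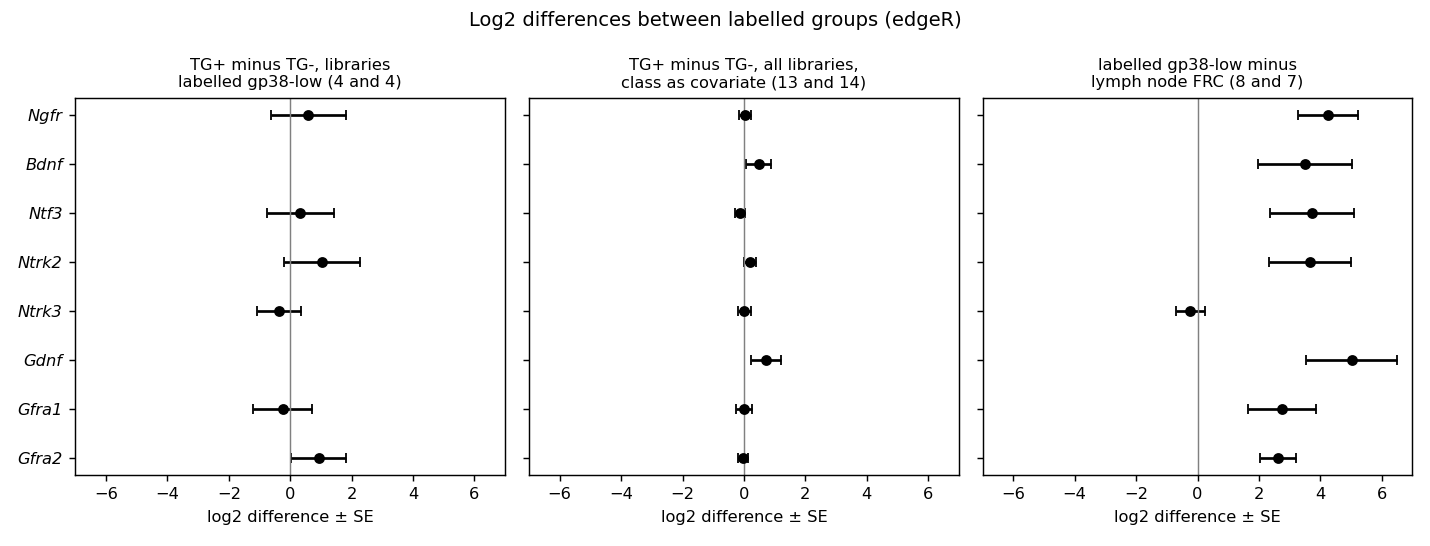
Log2 differences with SE for the 8 genes from edgeR: TG+ minus TG- in libraries labelled gp38-low (4 and 4; Bdnf and Gdnf did not pass the filter), TG+ minus TG- over all 27 libraries with marker class as covariate, and labelled gp38-low minus lymph node FRC. The middle panel has the shortest bars, all 8 points within 0.71 of 0, and the right panel has 7 of 8 points above 2.

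The libraries labelled gp38-high against gp38-low gave 0 calls among 18396 genes in edgeR (0%), 509 at an unadjusted p under 0.05 and 147 calls in DESeq2 (0.799%), none among the 8 genes. Gfra2 differed by -1.66 ± 0.68 (SE) and Ngfr by -2.25 ± 1.08 on the log2 scale (edgeR adjusted p of 0.9999 for both). Of the 4 libraries labelled gp38-high, 0 are Ccl21a libraries, against 3 of 8 labelled gp38-low. Against lymph node FRC, gp38-high also gave 0 calls in edgeR (0%), with 3014 genes at an unadjusted p under 0.05 and 738 calls in DESeq2 (4.01%), none among the 8. Ngfr stood at 2.01 ± 0.98 and Gfra2 at 0.96 ± 0.63 on the log2 scale (edgeR adjusted p = 0.290 and 0.340).

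Whether the transgene effect differed between gp38-low and lymph node FRC libraries was tested as an interaction. It gave 0 calls in edgeR (0%), 2454 genes at an unadjusted p under 0.05, and 639 calls in DESeq2 (3.47%), of which 1, Ntrk2, was among the 8. The difference of effects was 7.21 ± 2.67 (SE) on the log2 scale for Ntrk2 and 2.47 ± 1.10 for Gfra2, both with an edgeR adjusted p of 0.369. Other genes of the pathways were called in 0 of the 9 comparisons by edgeR.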

How the data were processed

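The authors deposited 1 table of raw read counts per gene for each library, as STAR's gene counter writes it. Per the submitters' processing notes, the tools were bcl2fastq 2.17, Trim Galore 0.4.3 and STAR 2.5.2a, and the build was mm10. Which annotation release they counted with was not given in the sources used here. Lines for reads in no gene were left out of totals and tests: unmapped reads (19.4% to 67.7% of a library), multimapped reads (4.98% to 7.28%) and reads outside genes or ambiguous (6.37% to 26.8%). The reverse-strand count column was used, since the forward column held 6.67% to 15.3% of stranded reads. Of 54446 identifiers 54409 matched GENCODE M21. Groups came from the labels. The members, marker classes, gene lists and tests were chosen with earlier results of these data known. CPM is scaled to the reads in genes, and log2 values have 0.5 added.

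Tests used edgeR 4.0.16 in R 4.3.3 (TMM, filterByExpr, robust quasi-likelihood F test, Benjamini-Hochberg adjustment, threshold 0.05). SE is the log2 difference over the root of F. The alternatives were DESeq2 1.42.0, RLE factors, no filter, unstranded counts, a replicate block and leaving out libraries. The test was tried on simulated data. Named were all 8 members, up to 4 genes per role with the highest level, and the 5 most correlated genes per member reaching 5 CPM in 3 libraries. Genes that did not overlap between classes, the sort and class genes and Gm26917 were named as well. Some genes that the rule names are not reported here.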

Additional observations from a re-analysis of the deposited data

Results flagged for a closer look

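In labelled groups of 4 libraries, 7 of 39 gene and group pairs had a library far from the others by Dixon's ratio. Chance gives about 1 in 20 groups. The library labelled CD45 TG- replicate 4, a Ptprc library, was low for 4 genes: Ngfr at 1.13 CPM (others 197 to 217), Ntrk2 at 0.496 CPM (others 177 to 199), Gfra2 at 4.68 CPM (others 241 to 280) and Ntf3 at 0.0708 CPM (others 9.45 to 11.4). CD45 TG+ replicate 3, a Ccl21a library, was high for Gfra2 at 266 CPM (others 45.9 to 61.8) and low for Ntrk3 at 1.18 CPM (others 11.4 to 15.7). In gp38-low TG- replicate 1, a Ptprc library, Ntf3 was at 0 CPM (others 9.32 to 13.3).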

How the results depend on the processing

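The number of the 8 genes called kept its value of 0 in all but 5 settings. DESeq2 called 1 in the lymph node FRC transgene comparison, 6 in gp38-low minus lymph node FRC and 1 in the difference of transgene effects. Leaving out 1 library gave 0 to 5 called genes in gp38-low minus lymph node FRC and 0 in each other comparison. The median Ngfr level of the Ccl21a libraries was 237 CPM with Gm26917 left out of the total, and the order of the class medians of Ngfr and Gfra2 was the same in each total and threshold tried. The cause was not tested. Depth limits Gdnf and Bdnf, with 0 to 38 Gdnf reads per library.

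Some uncalled log2 differences changed sign. Without the Ptprc libraries, an alternative chosen after seeing the data, the transgene difference was -0.082 for Ntf3 and -0.27 for Ntrk2 in CD45, -0.086 for Ntf3 in gp38-low, -0.0053 for Ngfr and -0.48 for Gfra1 in gp38-high, and with class as covariate -0.0072 for Gfra1 and 0.13 for Gfra2. Unstranded counts gave 0.027 for Bdnf in gp38-high, -0.020 for Bdnf in gp38-high minus gp38-low and -0.0061 for Ngfr with class as covariate. No filter gave 0.0018 for Ntrk3 in the difference of effects, and DESeq2 -0.061 for Gdnf in gp38-high minus lymph node FRC.

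Same-numbered libraries of 1 population correlated at -0.15 to 0.63 after group means were taken off. Because the labelled groups mix marker classes, these values cannot show whether such libraries share more than a number. With the replicate block 0 of the 8 genes were called in each comparison. The signs that changed under the block were those of Gfra1 in gp38-low (0.13), Bdnf in gp38-high (0.26) and in gp38-high minus gp38-low (-0.19), and Ntrk3 in gp38-high minus lymph node FRC (-0.028) and in the difference of effects (0.39).

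Leaving out 1 library at a time changed the sign of 19 differences. In CD45 the ranges were -0.082 to 0.64 for Ntf3 and -0.27 to 0.43 for Ntrk2. In gp38-low they were -0.86 to 0.44 for Gfra1, -0.066 to 2.45 for Ngfr, -0.086 to 0.74 for Ntf3 and -0.80 to 0.055 for Ntrk3. In gp38-high they were -0.996 to 6.71 for Bdnf, -0.48 to 4.28 for Gfra1 and -0.0101 to 2.62 for Ngfr, and in lymph node FRC -0.73 to 0.25 for Ntrk3. With class as covariate they were -0.17 to 0.15 for Gfra1, -0.17 to 0.0701 for Gfra2, -0.14 to 0.095 for Ngfr and -0.11 to 0.15 for Ntrk3. Between populations they were -3.28 to 0.80 for Bdnf in gp38-high minus gp38-low, -0.55 to 3.39 for Ntrk2 and -0.15 to 0.33 for Ntrk3 in gp38-high minus lymph node FRC, -0.47 to 0.013 for Ntrk3 in gp38-low minus lymph node FRC, and -0.49 to 0.47 for Ntrk3 in the difference of effects.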

Other observations

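Within the 7 Ccl21a libraries, Gfra2 split by label: the 4 labelled CD45 had 241 to 280 CPM and the 3 labelled gp38-low 164 to 233 CPM. This difference was seen after the values were known and was not tested.

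The levels in the Ptprc libraries were also set against the stromal collagen gene Col1a1. Per 1000 CPM of Col1a1, Gfra2 was 607 to 2822 CPM there against 7.63 to 11.8 CPM in the remaining libraries, Ngfr was 71.0 to 407 CPM against 2.57 to 7.17 CPM, and Ntrk3 was 94.7 to 1338 CPM against 0.978 to 3.01 CPM. In the Ccl21a libraries Gfra2 was 40.0 to 62.6 CPM, Ngfr 29.8 to 52.7 CPM and Ntrk3 0.231 to 0.636 CPM on this scale. Ntrk2, at 25.6 to 123 CPM in the Ptprc libraries, overlapped with the remaining libraries at 31.6 to 48.7 CPM. The ranges of Ntf3, Gfra1 and Bdnf overlapped between these classes as well. The source of the reads in the Ptprc libraries was not tested.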
